A study of Homo sapiens with 4 samples.

Results

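Open chromatin was followed at the genes of the core binding factor and of the ETO corepressors in Kasumi-1, a leukaemia cell line whose t(8;21) translocation fuses RUNX1 to RUNX1T1. The members were RUNX1, RUNX2, RUNX3, CBFB, RUNX1T1, CBFA2T2 and CBFA2T3, taken by name, and every ATAC-seq peak that the authors' annotation assigned to them was kept. These were 28 of the 20556 peaks of the first deposited table, and 12 of the 13577 peaks of the second overlapped them. The knockout cells carried a CRISPR/Cas9 knockout of SETD8, the histone H4 methyltransferase now named KMT5A, and the others, labelled sgNT, are given as WT for genotype. Both groups were Kasumi-1 cells grown in the same medium, with 2 libraries each, 4 in all. Whether the knockout cells were a pool or a clone, and whether libraries came from separate cultures, was left unstated in the sources, so any spread may be technical. The second table compares the knockout and sgNT libraries numbered 2, so it has 1 library per group and its differences have no replicate check. It carries no annotation, and its peaks took gene and class from the first-table peak they overlapped most. The first table names no library, and its fold change, which its name gives as treated against control, is read as knockout over sgNT. It holds 2 columns of unnamed libraries, so it too may have 1 library per group. Its p-values are therefore not taken to measure a spread between replicates.

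RUNX proteins bind DNA through the runt domain, and CBFB, which does not bind DNA itself, stabilises them there. RUNX1 is required for the formation of blood stem cells, RUNX2 for bone formation, and RUNX3 acts in T cells and sensory neurons. RUNX1T1, CBFA2T2 and CBFA2T3 form the ETO family of corepressors, which are brought to DNA by other factors and recruit NCOR complexes and histone deacetylases. In t(8;21) leukaemia the runt domain of RUNX1 is joined to almost the whole of RUNX1T1, and the fusion gene is read from the RUNX1 promoters. RUNX1 has a distal promoter, P1, and a proximal promoter, P2, each with its own first exon.

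The RefSeq promoter windows of build GRCh38.p14, which run from 250 bases before to 50 bases after a start, matched 5 of the 7 members with 7 windows. A peak of the first table covered 2 of these windows, those of RUNX1 P2 and of the distal RUNX2 promoter. Their upstream 250 bases are shown because the peaks described below lie on them. The RUNX1 stretch is chr21:34888700-34888949 on the minus strand, with GGAA or TTCC, the core of ETS factor sites, in capitals. The RUNX2 stretch is chr6:45328080-45328329 on the plus strand, with TGTGGN or its reverse complement, the core that RUNX proteins bind, in capitals.
RUNX1 P2: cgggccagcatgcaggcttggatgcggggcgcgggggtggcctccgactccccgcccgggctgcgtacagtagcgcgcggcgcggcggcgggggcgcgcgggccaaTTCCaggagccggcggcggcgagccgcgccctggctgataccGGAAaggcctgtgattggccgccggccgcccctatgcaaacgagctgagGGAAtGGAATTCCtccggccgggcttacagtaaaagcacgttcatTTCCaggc
RUNX2 distal: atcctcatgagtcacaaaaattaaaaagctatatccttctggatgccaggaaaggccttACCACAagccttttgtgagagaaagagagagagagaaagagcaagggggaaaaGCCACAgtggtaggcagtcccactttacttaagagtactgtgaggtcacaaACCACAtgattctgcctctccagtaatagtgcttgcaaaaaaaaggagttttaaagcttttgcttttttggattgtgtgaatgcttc

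The pair of windows differ in composition. The RUNX1 P2 window has 72.0% G and C and the distal RUNX2 window 42.7%, against a median of 58.7% over 35116 promoter windows of that length. RUNX1 P2 holds 6 GGAA matches and 0 TGTGGN matches, while the distal RUNX2 window holds 5 TGTGGN matches, 4 of which read TGTGGT. On both strands, TGTGGT occurs in 13.1% of all windows, the wider TGTGGN, which includes it, in 51.3%, and GGAA in 95.5%. Among the 7 member windows TGTGGT is found in 2, the distal windows of RUNX2 and RUNX3. Those windows share a stretch of 18 bases, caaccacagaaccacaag, with 2 TGTGGT matches in tandem on the opposite strand, found in 2 of the 35116 windows. It is shown here with 6 bases on either side and the matches in capitals, at chr6:45328338-45328367 on the plus strand, after the RUNX2 start, and at chr1:24965120-24965149 on the minus strand, before the RUNX3 start.
RUNX2 distal: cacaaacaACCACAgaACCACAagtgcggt
RUNX3 distal: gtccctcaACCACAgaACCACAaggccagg
The RUNX2 copy lies under a peak of the first table, whereas the nearest first-table peak is 9345 bp from the RUNX3 window. A match is a run of letters and not a shown binding site, and its absence from a window says nothing of the factor.

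Deposited levels were lower in the knockout at nearly all peaks of both tables, so each member is read against its table. In the authors' deposited tables the median log2 fold change, knockout over sgNT, was -0.87 over all peaks of the first and -1.23 over all peaks of the second. The knockout library numbered 2 had 2091322 reads in peaks and the sgNT library 5342041, as recovered from the deposited levels, and depth in the first table was not analysed here. The scale factors recovered with them were 1.0 and 0.9185, so the second-table fold changes keep most of this difference. For a typical second-table peak, the 95% exact binomial counting interval of the log2 fold change reaches 0.306 to each side. Such intervals cover counting error only, and not differences between libraries or cultures. PCR copies are not independent molecules, so where copies remain the intervals are too narrow. A change in openness, the number of reads each library gave in peaks and the scaling between libraries cannot be told apart here. Nor can fewer cells with a site open and less opening per cell, or the normal and the translocated RUNX1 alleles. The authors' test called 0 peaks at an adjusted p of 0.05 in either deposited table (0.0% of all peaks in each), and the smallest adjusted p of a member was 0.731 in the first and 0.578 in the second. At an unadjusted p under 0.05, 0 member peaks stood in either authors' deposited table, against 1.6% of all peaks in the first and 0.14% in the second. The promoter of KMT5A, the knocked-out gene, had log2 fold changes of -0.82 and -1.45 in the authors' deposited first and second tables, just above the median of the first and below that of the second. A CRISPR edit need not close a promoter, and nearly all peaks were lower, so these values cannot check the labels. Promoter peaks were present at CD34, KIT and SPI1, genes of myeloid progenitors, and absent at MPO and CD33 of the same list and at ALB, INS, CD3E and GFAP, genes of other lineages.

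Of the 28 member peaks, 26 had a negative fold change in the authors' deposited first table, against 92.3% of all its peaks. Their median was -0.82, and 16 lay above the table's median and 12 below. A fold change of -1 or lower was found at 10 of the 28, against 38.9% of all peaks, and of 1 or higher at 0, against 0.511%. In the authors' deposited second table all 12 member peaks were negative, against 98.6% of all peaks, with a median of -1.42. There 9 of the 12 were at -1 or lower, against 76.1% of all peaks, and 0 at 1 or higher, against 0.133%. Both shares lie near those of all peaks. Gene medians, over 1 to 11 peaks each, ran from -1.11 at RUNX1 to -0.35 at RUNX1T1 in the authors' deposited first table. The quartiles of all its peaks were -1.17 and -0.53. Against peaks of like level, in 20 bins, the gene medians ran from -0.215 at RUNX1 to 0.445 at CBFA2T3, with RUNX1T1 at 0.22.

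**Figure D1:**
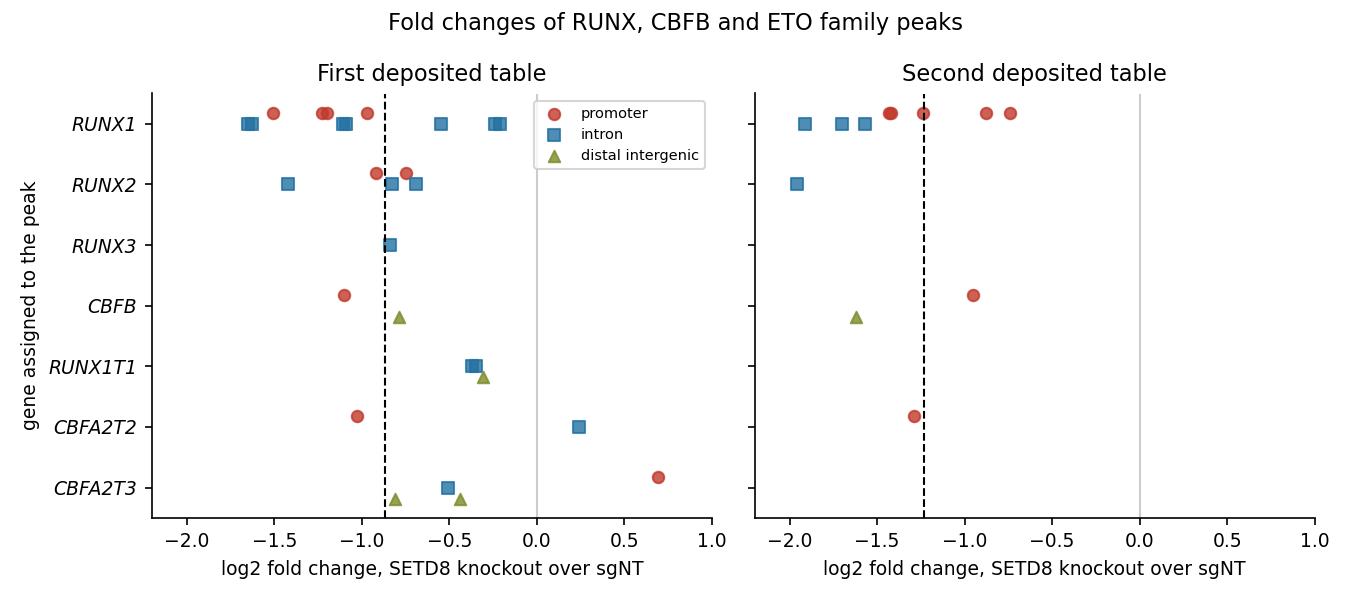
Log2 fold change of each peak (horizontal axis, SETD8 knockout over sgNT) by the gene it is assigned to (rows), in the first table (left, 28 peaks) and the second (right, 12 peaks). Symbols give the annotation class and the dashed line the median of all peaks, -0.87 and -1.23; most RUNX1 peaks lie left of the line in the first table and all 3 RUNX1T1 peaks right of it.

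RUNX1 held 11 of the 28 first-table peaks and 8 of the 12 in the second, more than any other member. Its median fold change in the authors' deposited tables was -1.11 in the first and -1.42 in the second, and 7 of 11 and 6 of 8 peaks were at -1 or lower, against 38.9% and 76.1% of all peaks. The second-table count is close to the share of all peaks there. The other peaks within 1 Mb of the gene had medians of -0.62 (19 peaks) and -1.05 (8 peaks), and all peaks of chromosome 21 of -0.63 and -0.995, in the authors' deposited tables. RUNX1 peaks were also stronger than these neighbours, with median log2 levels of 7.79 and 6.20 in the first table. Set against peaks of like level, in 20 bins, the medians were -0.215 for RUNX1 and 0.215 for the neighbours in the first table, and -0.155 and 0.095 in the second. No test was made of this difference, because peaks of 1 locus are not replicates.

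**Figure D2:**
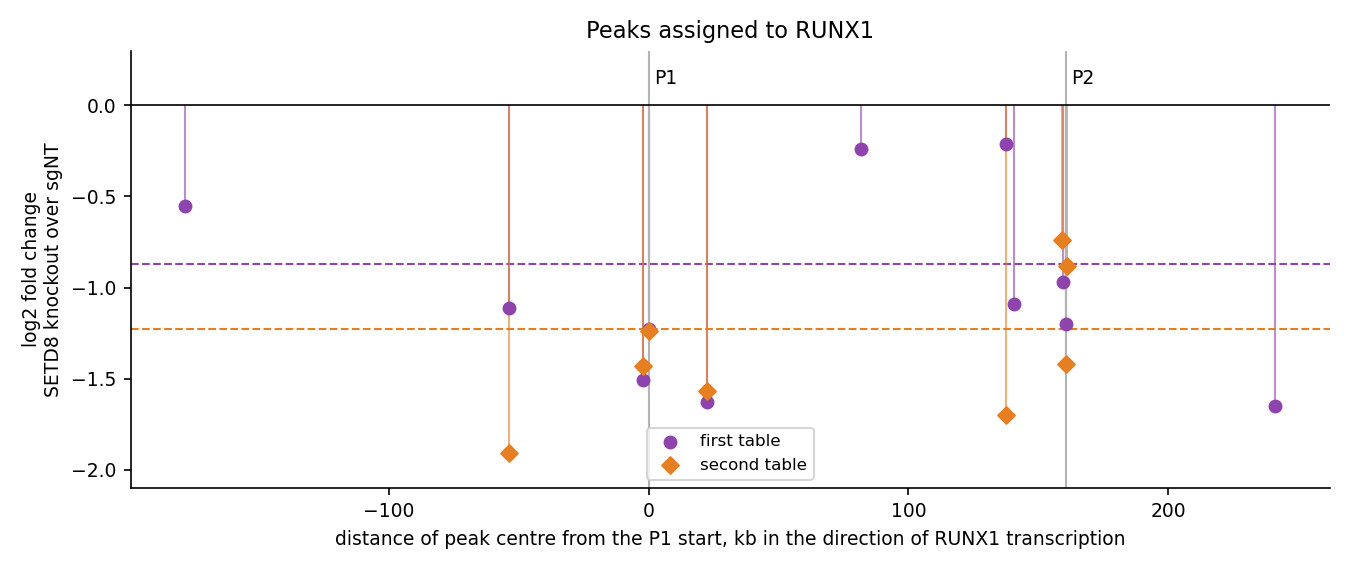
Log2 fold change (vertical axis, SETD8 knockout over sgNT) of the peaks assigned to RUNX1 against the distance of their centre from the P1 start in kb (horizontal axis, positive in the direction of transcription). Circles are the first table, diamonds the second, dashed lines the medians of all peaks; peaks near P1 and P2 and 22.3 kb into the gene are present in both tables, and the value 138 kb into the gene differs most between them.

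P2 was the strongest RUNX1 site of the first table. Its peak at chr21:34888145-34889319, which contains the window printed above, had a mean of 431 normalised reads, more than at 88.1% of all first-table peaks, and a fold change of -1.20 in the authors' deposited first table (p = 0.256). The second table divides this site into 2 peaks. The peak at chr21:34888489-34888980, over the start, had 128 knockout reads and 343 normalised sgNT reads, a fold change of -1.42 in the authors' deposited second table (counting interval -1.72 to -1.13). The peak at chr21:34888030-34888366, just inside the gene, had 86 knockout reads and 159 normalised sgNT reads, a fold change of -0.88 in the authors' deposited second table (-1.28 to -0.50). The peak over the start lay 0.19 below the table median and the inner one 0.35 above it, and their counting intervals overlap.

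A further promoter peak, upstream of P2 at chr21:34889524-34890436, had a mean of 335 normalised reads and a fold change of -0.97 in the authors' deposited first table. Its partner at chr21:34889537-34890551 had 218 knockout reads (190.02 to 249) and 365 normalised sgNT reads (329.7 to 402), a fold change of -0.74 in the authors' deposited second table (-0.99 to -0.50). It was the strongest RUNX1 peak of the second table and the least lowered of the 12 second-table peaks, above 90.6% of all peaks there, and the single member peak whose counting interval lay wholly above the table median. In the first table the same site was 0.10 below the median.

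At P1, the distal promoter, the peak at chr21:35048895-35049558 showed a fold change of -1.23 in the authors' deposited first table. Its partner in the second had 114 knockout reads and 271 normalised sgNT reads, a fold change of -1.24 in the authors' deposited second table (-1.57 to -0.93). That value equals the median of all peaks within 0.01, while the first-table value lay 0.36 below its median. A peak 2.14 kb upstream, at chr21:35051240-35051735, was lower at -1.51 in the authors' deposited first table and -1.43 in the authors' deposited second table. There the knockout library had 101 reads and the sgNT library 272 normalised reads.

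Between the promoters, a strong intronic site was low in both tables, though other RUNX1 peaks were lower still in the second. The peak at chr21:35026682-35027389, 22.3 kb inside P1, showed a fold change of -1.63 in the authors' deposited first table, where 5.13% of all peaks were lower. Its partner had 112 knockout reads (92.2 to 135) and 333 normalised sgNT reads (299.99 to 370), a fold change of -1.57 in the authors' deposited second table (-1.89 to -1.26). A blood-specific intronic enhancer of RUNX1, first described in mouse, is known in this intron downstream of P1, and whether this peak is that element was not tested. The peak at chr21:34807469-34808726, in a later intron past P2, was the lowest RUNX1 peak of the first table at -1.65 in the authors' deposited first table, and no second-table peak overlapped it. In t(8;21) the break usually falls upstream of that intron, which then stays outside the fusion gene.

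Other peaks of RUNX1 outside promoters varied widely. The peak at chr21:34911415-34911732 showed a fold change of -0.21 in the authors' deposited first table, 0.66 above the median, yet -1.70 in the authors' deposited second table, 0.47 below it. In the second, 43 reads were counted in the knockout library (31.1 to 57.9) and 139 normalised reads in the sgNT library (117 to 163). This was the largest disagreement between the tables among the members. Intronic peaks at chr21:34908452-34908855 and chr21:34967554-34967950 had -1.09 and -0.24 in the authors' deposited first table and no partner in the second. Upstream of P1, the peak at chr21:35102936-35103514, 53.9 kb from it, had -1.11 in the authors' deposited first table and -1.91 in the authors' deposited second table, with 49 knockout reads and 185 normalised sgNT reads. A peak 178 kb upstream, at chr21:35227436-35227946, had -0.55 in the authors' deposited first table.

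**Figure D3:**
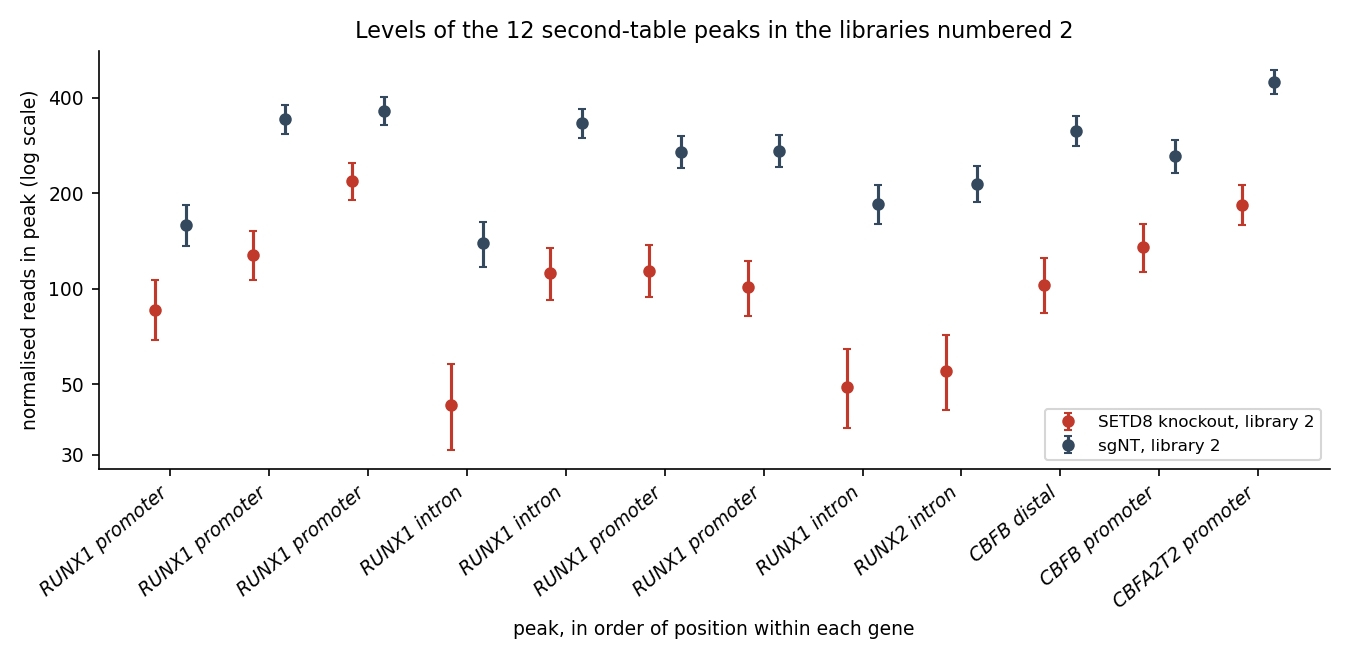
Normalised reads (vertical axis, log scale) of the 12 second-table member peaks in the SETD8 knockout library (left point of each pair) and the sgNT library (right point) numbered 2, with 95% Poisson intervals that cover counting error only. Knockout values run from 43 to 218 reads and sgNT values from 139 to 449, and the intervals of the pair do not overlap at any of the 12 peaks, as at 93.9% of all second-table peaks, where the knockout was the lower.

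RUNX2, the bone factor of the family, had 5 peaks with a median of -0.83 in the authors' deposited first table, close to all peaks. The distal promoter peak at chr6:45327989-45328463, which holds the tandem sites printed above, was weak, with a mean of 35.0 normalised reads, and had -0.75 in the authors' deposited first table. Its difference from peaks of like level was -0.65. A promoter peak at chr6:45419610-45420334, 1702 bp from the nearest start, was stronger at 205 normalised reads and had -0.92 in the authors' deposited first table. The lowest RUNX2 value was intronic, -1.42 at chr6:45495805-45496270 in the authors' deposited first table, with a mean of 68.1 normalised reads. It had the smallest p of the 28 peaks there, 0.115, and its difference from peaks of like level was -0.73. A peak outside the gene at chr6:45310318-45310796, in an intron of the neighbouring SUPT3H, had -0.69 in the authors' deposited first table.

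A single RUNX2 peak was found in both tables, the intronic peak at chr6:45445817-45446245. It had -0.83 in the authors' deposited first table, within 0.04 of the median. In the second, the knockout library had 55 reads (41.4 to 71.6) and the sgNT library 214 normalised reads (187 to 243). The fold change of -1.96 in the authors' deposited second table (-2.41 to -1.53) was the lowest of the 12 member peaks there, with 1.46% of all peaks lower. The strongest peak inside the RUNX2 span, at chr6:45377310-45378464 with 873 normalised reads, is assigned to the promoter of SUPT3H and is not a member. It had -1.11 in the authors' deposited first table and -1.51 in the authors' deposited second table.

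RUNX3 had 1 peak, in its first intron at chr1:24955039-24955616, with a mean of 139 normalised reads and -0.84 in the authors' deposited first table. That is the middle of the table, with 51.8% of all peaks lower. No RUNX3 promoter window lay under a peak of either table. A second-table peak inside the gene at chr1:24932292-24932628, 1766 bp from the proximal promoter window and outside the member rule because no first-table peak overlapped it, had 51 knockout reads and 86.2 normalised sgNT reads, a fold change of -0.76 in the authors' deposited second table (-1.28 to -0.25).

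CBFB, the shared partner subunit, had a promoter peak and a peak 10577 bp upstream, and both were found in each table. The promoter peak at chr16:67028484-67029369 had -1.10 in the authors' deposited first table. In the second, 135 reads in the knockout library (113 to 159.8) stood against 261 normalised reads in the sgNT library (232 to 294), or -0.95 in the authors' deposited second table (-1.26 to -0.65). The upstream peak at chr16:67017975-67018407 had -0.79 in the authors' deposited first table. Its partner had 103 knockout reads (84.1 to 125) and 315 normalised sgNT reads (283 to 350.2), or -1.62 in the authors' deposited second table (-1.94 to -1.29). The order of the 2 CBFB sites was thus opposite in the tables: the promoter was the lower in the first and the upstream site in the second.

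RUNX1T1, the corepressor gene that supplies the rest of the fusion protein, had no promoter peak and 3 weak or distant peaks. Their fold changes in the authors' deposited first table lay within 0.06 of each other, at -0.37, -0.35 and -0.31, all above the median of all peaks. The peak inside the gene, at chr8:92033639-92033922, had a mean of 26.2 normalised reads, and 1.48% of all peaks were weaker. Peaks at chr8:91811563-91812139 and chr8:92187363-92187700 lay outside the gene, with 135 and 48.2 normalised reads. Weak peaks of the first table had fold changes nearer 0 in general, and against peaks of like level the 3 values were 0.58, -0.25 and 0.22 in order of position. No second-table peak overlapped any of the 3. The 4 other peaks within 1 Mb had a median of -1.27, and all peaks of chromosome 8 one of -0.73, in the authors' deposited first table.

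The other ETO corepressor genes held both positive values of the 28. CBFA2T2 had a promoter peak at chr20:33489727-33490607 with -1.03 in the authors' deposited first table. Its partner was the strongest member peak of the second table in the sgNT library, with 184 knockout reads (158 to 213) and 449 normalised sgNT reads (410.2 to 491), or -1.29 in the authors' deposited second table (-1.54 to -1.04). A narrow intronic CBFA2T2 peak at chr20:33555042-33555260, with a mean of 52.7 normalised reads, had 0.24 in the authors' deposited first table. CBFA2T3, which acts with blood transcription factors in progenitors, had the highest value of all members at a promoter, 0.69 at chr16:88976928-88977320 in the authors' deposited first table (p = 0.445). That peak had a mean of 73.0 normalised reads, and 98.7% of all peaks had a lower fold change. It lay 1.38 above peaks of like level. Its adjusted p in the authors' test was 0.731, above the cut of 0.05 used here, as at every peak of the first table. The intronic CBFA2T3 peak and the distal peaks 48954 and 54656 bp upstream had -0.51, -0.81 and -0.44 in the authors' deposited first table, and none of the 4 had a partner in the second. The distal peak at -0.81 was weak, and its difference from peaks of like level was -0.71. Inside CBFA2T3, 2 further peaks are assigned to LOC100129697 and are not members. The intronic one at chr16:88925111-88925617 had -0.94 and the one at chr16:88936561-88937116 had -1.17 in the authors' deposited first table, both below the median of all peaks.

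Of the 28 peaks, 11 (39.3%) overlapped a second-table peak, against 54.5% of all first-table peaks. Peaks found in both were stronger, with a median log2 level of 7.81 against 6.19 for the 17 others, as over all peaks (7.90 and 6.24). By class, 6 of 9 promoter peaks, 4 of 15 intronic peaks and 1 of 4 distal peaks had a partner, against 77.0%, 21.4% and 24.7% of all first-table peaks of these classes. The member shares are near these, and 9 of the 28 are promoters. The tables also differed in how promoters stood to other sites. In the authors' deposited second table the 7 member promoter peaks ran from -1.43 to -0.74 and the 5 others from -1.96 to -1.57, so the classes did not overlap and their medians, -1.24 and -1.70, differed by 0.46. Over all peaks of that table that overlapped a first-table peak, the difference was 0.03, with quartiles of -1.44 and -1.07 for promoters and -1.52 and -1.02 for the others. In the authors' deposited first table the 6 member promoters found in both tables had a median of -1.15 and the 5 other sites one of -0.83, a difference of -0.32 in the opposite direction, and the classes overlapped. The pattern was noticed in these values and has no test.

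**Figure D4:**
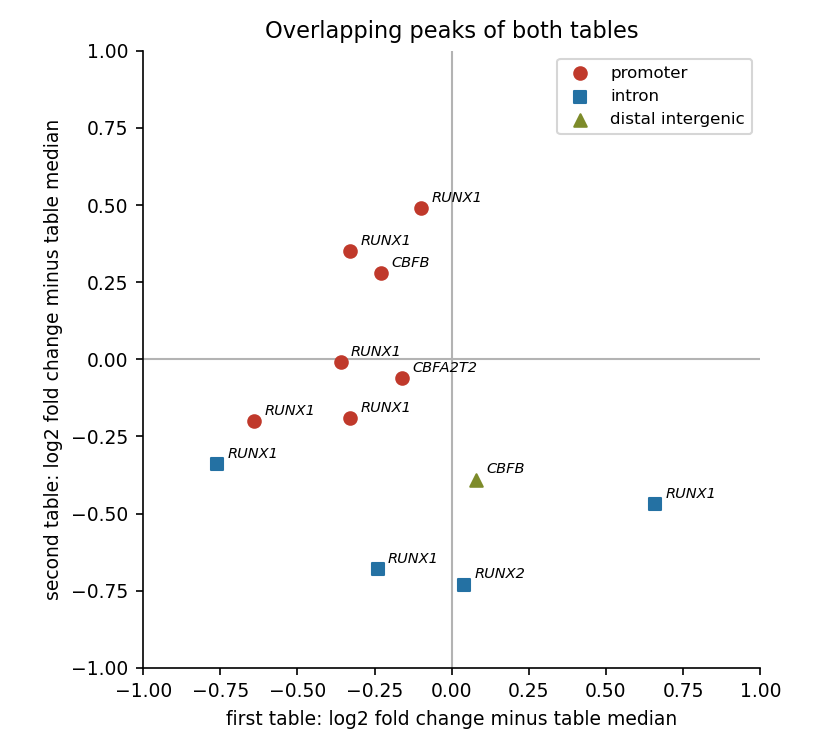
Fold change minus the table median at the overlapping member peaks, first table (horizontal axis) against second (vertical axis), both on the log2 scale. A first-table RUNX1 peak that meets 2 second-table peaks is drawn 2 times, and all 5 sites outside promoters lie below the median of the second table.

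Because the first table names no library, it may share libraries with the second, and agreement between the tables is not counted as a result. Relative to each table's median, the pairs differed between tables by -1.13 to 0.68 on the log2 scale, second minus first. By counting error alone, 4 of the 12 second-table peaks lay below the median of all peaks (the RUNX1 sites 22.3 kb inside and 53.9 kb upstream of P1, the RUNX2 intron and the upstream CBFB site) and 1 above it. The same held below for 16.7% and above for 16.7% of all second-table peaks. Such intervals compare 2 libraries and not the conditions.

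Genes that work with RUNX1 or the ETO proteins, or that they control, were read at the strongest promoter peak of each gene, a promoter being within 3 kb of a start in the authors' annotation. The values for all promoters count every promoter peak and not the strongest of each gene, so the sets compared are unlike. Of 36 partner genes 23 had a promoter peak in the first table, with a median of -0.75 in the authors' deposited first table, against -0.92 for all 11787 promoter peaks. With the median of all promoter peaks of each partner gene it was -0.77. At -1 or lower were 8 of the 23, against 42.0% of all promoter peaks, and 0 were at 1 or higher, against 0.511% of all first-table peaks. Of the 36, 18 had an overlapping promoter peak in the authors' deposited second table, with a median of -1.13 against -1.26, and 11 of 18 were at -1 or lower, against 82.8%. The lowest were TBL1X (-1.63), a subunit of the NCOR complex, SUV39H1 (-1.48), a histone methyltransferase, SPI1 (-1.41) and CEBPA (-1.20), myeloid transcription factors, and TLE4 (-1.20), a corepressor that ties with CEBPA, in the authors' deposited first table. Among the highest were NCOR1 (-0.21), a corepressor that ETO proteins bind, GFI1 (-0.24), a repressor of the blood lineage, and CREBBP (-0.32), a histone acetyltransferase, in the authors' deposited first table. SUV39H1, SPI1 and CEBPA had -1.09, -0.97 and -0.81 in the authors' deposited second table, above its median, whereas TLE4 had -1.82, the lowest of the list there. NCOR1 stood at -1.25 in the authors' deposited second table, near its median, and CREBBP at -0.81, while no peak there overlapped the promoter peaks of TBL1X and GFI1.

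Of 30 target genes 19 had a promoter peak in the first table, with a median of -0.85 in the authors' deposited first table, and 7 of 19 were at -1 or lower, against 42.0% of all promoter peaks. Of the 30, 13 had one in the authors' deposited second table, with a median of -1.11, and 11 of 13 were at -1 or lower, against 82.8%, so both counts are near the shares of all promoters. PRG2 (-1.58), an eosinophil granule protein gene, OGG1 (-1.45), of DNA repair, BCL2 (-1.12), of cell survival, and MEIS1 (-1.09), a homeobox factor, were lowest in the authors' deposited first table. CSF1R (-0.33), the receptor of a macrophage growth factor, LAT2 (-0.52), a signalling adaptor, MYB (-0.58), a progenitor transcription factor, and CDKN2D (-0.62), a cell cycle inhibitor, were highest in the authors' deposited first table. Of these 8, OGG1, BCL2, MYB and CDKN2D had overlapping promoter peaks, at -1.12, -1.02, -1.46 and -1.09 in the authors' deposited second table. With all promoter peaks of each gene the first-table median of the target list was -0.98 in the authors' deposited first table, below that of all promoters, so its direction against them turned with the choice of peak. No promoter of either list passed an adjusted p of 0.05 in the authors' deposited first table, where 0 of all peaks did.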

How the data were processed

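Kasumi-1 ATAC-seq libraries of SETD8 knockout and sgNT cells, 2 each, were grouped by their titles. Per the submitters' processing notes, hg38 was the build and MACS2 2.1.2, ChIPseeker, Bowtie2, deepTools, cutadapt and SAMtools were used. Read shifting, duplicate removal and scaling between libraries are not given in the sources used here, and each bears on the levels. The authors deposited 2 tables with log2 levels, log2 fold changes, p-values and adjusted p-values per peak, per the file headers of the second; the first has numbered columns, identified by order and range, and its direction was read from the table's name. Its 2 columns of unnamed libraries were not used. The planned count test was replaced by the fold changes and p-values as the authors deposited them. The first table holds log2 levels of unnamed libraries and not counts. The second has 1 library per group, so the reads recovered from its levels have no replicates to test.

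Members and lists were chosen with earlier results of these data known. Peaks were joined at 1 bp of overlap, and second-table peaks took gene and class from the join. RefSeq windows matched 5 of 7 members, not RUNX1T1 or CBFB. Reads of the second table were recovered from its levels as deposited (scale 0.9185 for sgNT; 134 and 112 weak values, 100% whole within 0.005 on the log2 scale); levels are rounded, so larger counts are approximate. Intervals are 95% exact Poisson for reads and exact binomial for ratios, and cover counting error only. Levels were binned into 20 bins. Joining, binning and motif search were tested on simulated data. Named list genes were the 4 lowest and 4 highest per list; some listed genes are not reported here. Alternatives covered centring, level, fold size, p threshold, members left out, overlap, motif and promoter choice. Python 3.11.15, numpy 2.4.6, pandas 2.3.3, scipy 1.17.1 and matplotlib 3.10.9 were used. Sequences are from RefSeq, GRCh38.p14.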

Additional observations from a re-analysis of the deposited data

How the results depend on the processing

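Subtracting the table median took the members' median fold change to 0.05 (first table) and -0.20 (second table), subtracting that of level bins to 0.04 and -0.16, and subtracting that of other peaks within 1 Mb, an alternative chosen after seeing the data, to 0.045 and -0.375. The count of member peaks at -1 or lower became 0 in both tables under centring and under level bins, since the shared shift was taken away. Among peaks at or above the median level the first-table median was -1.16 and its promoter minus other difference 0.255 in place of -0.34, and 3 of the 4 second-table peaks left were at -1 or lower. At a fold threshold of 0.5 the first table had 20 such peaks, and at 1.5 the tables had 3 and 5. The shares of all peaks at these thresholds were not computed. Over all peaks the quartiles were -1.17 and -0.53 in the first table and -1.43 and -1.01 in the second. Leaving out each member in turn gave 3 to 10 first-table peaks and 3 to 8 second-table peaks at -1 or lower, the lowest without RUNX1. As RUNX1 held 11 of the 28 first-table peaks and 8 of the 12 second-table peaks, its removal also left fewer peaks to count. Of all peaks, 38.9% and 76.1% were at -1 or lower. Centring took the partner list to 0.12 and 0.10 and the target list to 0.02 and 0.12. The wider RUNX motif was found in 5 member windows in place of 2. The cause was not tested beyond the construction of each setting. The other 48 of 71 alternatives kept their sign and stayed within 0.306 on the log2 scale or 1.5 times a count. Some of these still crossed the first table's median of -0.87: the target list with all promoter peaks of each gene, at -0.98, and the members without CBFA2T3, at -0.88. No paired analysis was possible because the first table names no library, so the library columns carry the replicate number 2 alone, and for the same reason leaving out each replicate was not run.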
